A study of Mus musculus with 3 samples.

Results

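The transforming growth factor beta (TGF-beta), activin and bone morphogenetic protein (BMP) pathway was followed in cultured dermal fibroblasts of mice that differed in Fgfr3, which encodes one of the tyrosine kinase receptors that bind fibroblast growth factors. A list of 45 pathway genes was taken by name and covered ligands, receptors, SMAD proteins, inhibitors and target genes. Of these, 42 were represented by a probe set annotated to a single gene, among 7842 genes named in this way, and where a gene had several such probe sets the one brightest on average in log2 was read. Tgfbr2, Bambi and Pmepa1 were not analysed here.

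Expression was measured on Affymetrix arrays, with 3 columns of values, 1 per genotype, all from untreated cells in fibroblast growth medium. FGFR3Act cells came from mice with the allele Fgfr3G374Rneo-, whose receptor carries the change G374R and is active without ligand. FGFR3KO cells came from mice with FGFR3G374Rneo+ and are labelled as lacking functional receptor, so both mutants carry the G374R change. FGFR3WT cells were from Bl6 animals, the wild type. The sources used here do not give the strain of the mutants, the age of the animals or the passage of the cells. The series design names 3 samples per group, but the table has 1 column per genotype. A column may hold a single culture, pooled RNA or an average of several samples, which is not known, so there is no replicate error and no test. Each column is called an array below, and every difference is one between 2 columns, given as a size.

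In this pathway, dimeric ligands bind pairs of type I and type II receptor kinases, which phosphorylate SMAD proteins. TGF-betas and activins act mainly through SMAD2 and SMAD3, and BMPs through SMAD1 and SMAD5; both kinds then join SMAD4 and enter the nucleus. In dermal fibroblasts the TGF-beta branch is best known for driving matrix production and the myofibroblast state. BMP signalling is best known for inducing the ID genes, whose proteins bind E proteins and keep them off DNA.

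The promoters of 3 ID genes and of the ligand genes Bmp4 and Tgfb2 are shown first. The ID genes had their highest signal on FGFR3Act, by 1.25-fold to 6.19-fold over wild type, and these ligand genes their lowest. The activin subunit genes Inhba and Inhbb also had their highest signal there. Their windows were searched but are not printed, so every printed window holds a match and theirs hold none. Each sequence is the 250 bases before the RefSeq transcription start in GRCm38.p6, written 5′ to 3′ on the gene's strand. RefSeq promoter entries matched 30 of the 45 members and 3 of the 4 ID genes. Capitals mark matches on either strand to 4 motifs: CAGAC (the SMAD box), GGCGCC (a GC-rich SMAD element), CCAAT (the CCAAT box) and CANNTG (the E-box, the site of E proteins). No match overlapped a match of another motif. Of 32851 promoter windows of this length, 42.2% held the SMAD box, 9.59% the GC-rich element, 33.8% the CCAAT box and 66.2% the E-box.
Id2, chr12:25096093-25096342, minus strand: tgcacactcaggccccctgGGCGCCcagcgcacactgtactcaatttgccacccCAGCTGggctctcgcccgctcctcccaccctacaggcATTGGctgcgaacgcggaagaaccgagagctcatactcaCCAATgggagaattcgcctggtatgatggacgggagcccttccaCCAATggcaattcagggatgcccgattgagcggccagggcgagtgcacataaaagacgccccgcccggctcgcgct
Id3, chr4:136143572-136143821, plus strand: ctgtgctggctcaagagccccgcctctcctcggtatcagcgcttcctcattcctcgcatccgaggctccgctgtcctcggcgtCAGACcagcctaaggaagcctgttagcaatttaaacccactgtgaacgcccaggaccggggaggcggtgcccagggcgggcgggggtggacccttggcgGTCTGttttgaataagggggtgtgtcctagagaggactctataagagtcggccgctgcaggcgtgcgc
Id4, chr13:48260866-48261115, plus strand: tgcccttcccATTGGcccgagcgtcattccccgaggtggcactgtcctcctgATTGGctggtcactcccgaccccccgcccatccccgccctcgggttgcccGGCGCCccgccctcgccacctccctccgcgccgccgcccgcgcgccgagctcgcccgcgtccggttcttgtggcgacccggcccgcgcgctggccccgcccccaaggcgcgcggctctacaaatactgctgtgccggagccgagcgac
Bmp4, chr14:46390670-46390919, minus strand: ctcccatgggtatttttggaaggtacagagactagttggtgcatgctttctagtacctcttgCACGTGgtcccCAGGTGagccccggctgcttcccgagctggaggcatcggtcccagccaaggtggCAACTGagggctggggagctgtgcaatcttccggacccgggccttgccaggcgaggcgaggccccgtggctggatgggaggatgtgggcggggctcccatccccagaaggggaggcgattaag
Tgfb2, chr1:186705990-186706239, minus strand: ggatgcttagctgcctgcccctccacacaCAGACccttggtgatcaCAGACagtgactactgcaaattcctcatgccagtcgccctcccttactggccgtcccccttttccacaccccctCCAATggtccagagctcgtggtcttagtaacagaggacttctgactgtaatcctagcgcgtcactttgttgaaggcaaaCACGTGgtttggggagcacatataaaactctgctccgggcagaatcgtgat

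Counted from the transcription start, Id2 held the GC-rich element at -231, an E-box at -196 and 3 CCAAT boxes beginning at -159, -120 and -76. Id4 held the GC-rich element at -148 and 2 CCAAT boxes at -240 and -198. Id3 held 2 SMAD boxes, at -167 and -68, and neither of the other ID windows held one. Bmp4 held 3 E-boxes, at -188, -177 and -123. Tgfb2 held 2 SMAD boxes, at -221 and -204, a CCAAT box at -130 and an E-box at -51. The windows of Inhba and Inhbb held none of these letters. These are matches of letters and describe the windows only.

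The values are linear MAS5 signals, and signals under the 40th percentile of an array's non-control probe sets were treated as too dim to order. This floor lay at 123 on FGFR3Act, 122 on FGFR3KO and 121 on FGFR3WT. Dimmer signals were set to the floor before log2 was taken, genes at the floor on both arrays of a pair were not compared, and where only 1 array was at the floor the fold is a bound, written "at least". Fibroblast markers were above the floor in 11 of 12 on every array (Prrx1 was not). Their summed signals were 55390, 80308 and 60261 on FGFR3Act, FGFR3KO and FGFR3WT, sums that the brightest genes dominate. Over the 11 markers the median log2 difference on FGFR3Act against FGFR3WT was -0.35, with 3 above 0 and 8 below. Against FGFR3KO it was -0.56, with 2 above and 9 below. The medians of all genes in these pairs were -0.07 and -0.05. Fgfr3 itself could not check the genotypes, with signals of 2.42, 3.76 and 1.06. Macrophage and leukocyte markers were above the floor in 15 of 19 on FGFR3Act and in 1 of 19, Cd14, on each of the other arrays. Their summed signal was 37647 on FGFR3Act, 1410 on FGFR3KO and 1264 on FGFR3WT, with Csf1r, the colony-stimulating factor receptor of macrophages, at 1446, 90.2 and 73.8. On FGFR3Act Ptprc, Itgam, Aif1 and Cd74 were below the floor. The part of these cells in the differences of FGFR3Act below was not tested, and in bulk RNA fewer cells of a type and less RNA per cell cannot be told apart. Endothelial markers were below the floor in 7 of 7 on every array, and keratinocyte markers in at least 5 of 6. Krt1 was above it on FGFR3KO alone (158). Of 5 mast cell markers, Tpsb2 was above it on every array and Cma1 on FGFR3Act alone (222). Of 4 smooth muscle and pericyte markers, Acta2 was above it on every array and Myh11 on FGFR3KO alone (370). Of 2 Schwann cell markers, Sox10 was above it on every array, and of 5 melanocyte markers, Dct on FGFR3KO alone (150).

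Of the 42 members, 30 were above the floor on at least 1 array and 28 on all 3. The other 12 were below it on every array, with signals between 5.12 and 108, and have no order here. They were the ligands Tgfb1, Bmp2, Bmp7 and Gdf5, the receptors Tgfbr1, Tgfbr3, Acvr1 and Acvr1b, the signal transducers Smad3 and Smad5, and the inhibitors Nog and Skil. A low MAS5 signal can come from a poor probe set as well as from a low transcript level, so no statement is made on whether the cells express them.

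On FGFR3Act against FGFR3WT, 3 of 30 members were higher by 2-fold or more (Id2, Inhba and Inhbb) and 3 lower to that extent (Bmp4, Acvr2a and Tgfb2). Of all 5244 genes compared, 4.14% were that much higher and 4.79% that much lower. As reported, 3 of 30 is a larger share on each side but rests on few genes and on the settings. Inhbb was compared only because it passed the floor on FGFR3Act, and with both arrays required above the floor 2 of 28 were higher. On the lower side 2 of 30 remained after quantile normalisation or cyclic loess, and 1 of 26 with the floor at the 60th percentile. On FGFR3KO against FGFR3WT, 0 of 28 were 2-fold apart in either direction, where 1.93% of 5184 genes were higher and 3.61% lower. On FGFR3Act against FGFR3KO, 2 of 30 passed 2-fold on the higher side (Id2 and Inhbb) and 1 on the lower side (Acvr2a), against 8.33% and 7.49% of 5297 genes. These shares lie near or below the background of that pair. The median log2 difference of the members was 0.06, -0.01 and 0.17 in the 3 pairs, and that of all genes -0.07, -0.02 and -0.05. The medians of the list thus lay near 0 in each pair, and the differences past 2-fold were those of single members.

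**Figure D1:**
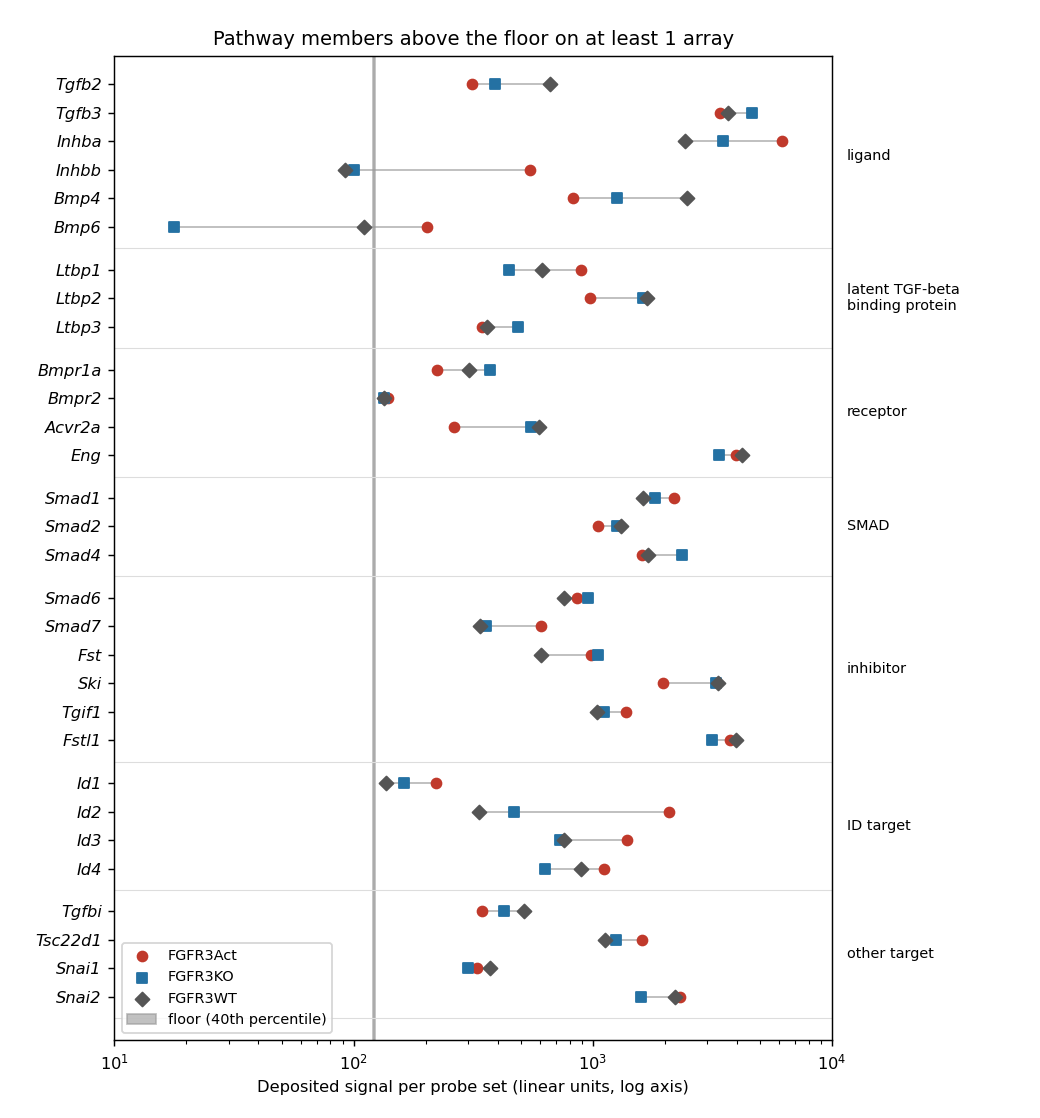
Deposited signal of the 30 members above the floor on at least 1 array, grouped by role, on a log axis. Each point is 1 array, the grey line joins the 3 arrays of a gene and the grey band is the floor; the FGFR3Act point lies to the right of the gene's own other points for Id2, Inhba and Inhbb, and to their left for Bmp4, Tgfb2 and Acvr2a.

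Of the 6 ligand genes compared with FGFR3WT on FGFR3Act, 2 were higher and 2 lower by 2-fold or more. Over all genes 4.14% were that much higher and 4.79% that much lower, and 6 genes are too few to set the role apart. The median log2 difference of the ligands was 0.31. With both arrays required above the floor, 4 were compared, 1 above 0 and 3 below, and the median was -0.61. Inhba encodes the beta A subunit of activin A. Its signal was 6171 on FGFR3Act, 3514 on FGFR3KO and 2418 on FGFR3WT. FGFR3Act was 2.55-fold above FGFR3WT and 1.76-fold above FGFR3KO, and FGFR3KO was 1.45-fold above FGFR3WT. Inhbb, which encodes the beta B subunit of activin B, had 547 on FGFR3Act and was below the floor on FGFR3KO (100.4) and FGFR3WT (91.9). The difference was at least 4.53-fold against FGFR3WT and at least 4.49-fold against FGFR3KO. With a higher floor, at the 60th percentile, the bound for Inhbb dropped to a log2 difference of 0.60 against FGFR3WT and 0.63 against FGFR3KO.

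The TGF-beta ligands did not move together. Tgfb2 was highest on FGFR3WT, with 663 against 312 on FGFR3Act and 390 on FGFR3KO, which is 2.13-fold lower on FGFR3Act and 1.70-fold lower on FGFR3KO. Its FGFR3Act difference fell just short of 2-fold after quantile normalisation (log2 -0.97), after cyclic loess (-0.94) and with the floor at the 60th percentile (-0.98). Tgfb3 was bright on every array, with 3387, 4622 and 3686 on FGFR3Act, FGFR3KO and FGFR3WT, and at most 1.36-fold apart. Tgfb1, the isoform most often linked to fibrosis, was read by a probe set at 26.6, 35.1 and 26.9, far below the floor.

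Among BMP ligands, Bmp4 stood lower on both mutants than on FGFR3WT. Its signal was 827 on FGFR3Act, 1266 on FGFR3KO and 2466 on FGFR3WT, which is 2.98-fold lower on FGFR3Act and 1.95-fold lower on FGFR3KO. A second probe set gave the same order with smaller steps, at 758, 961 and 1329, and read alone it put FGFR3Act below 2-fold (log2 -0.81). Bmp6 went the other way on FGFR3Act, with 202 there, 17.8 on FGFR3KO and 110 on FGFR3WT. Against the floor this is at least 1.67-fold higher than FGFR3WT and at least 1.66-fold higher than FGFR3KO. Its second probe set was below the floor on every array, at 69.3, 26.4 and 54.1. A floor at the 20th percentile took the Bmp6 difference between FGFR3Act and FGFR3KO past 2-fold, and with an offset of 16 in place of a floor it was 2.69 in log2, so the size of this step depends on how dim signals are read.

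**Figure D2:**
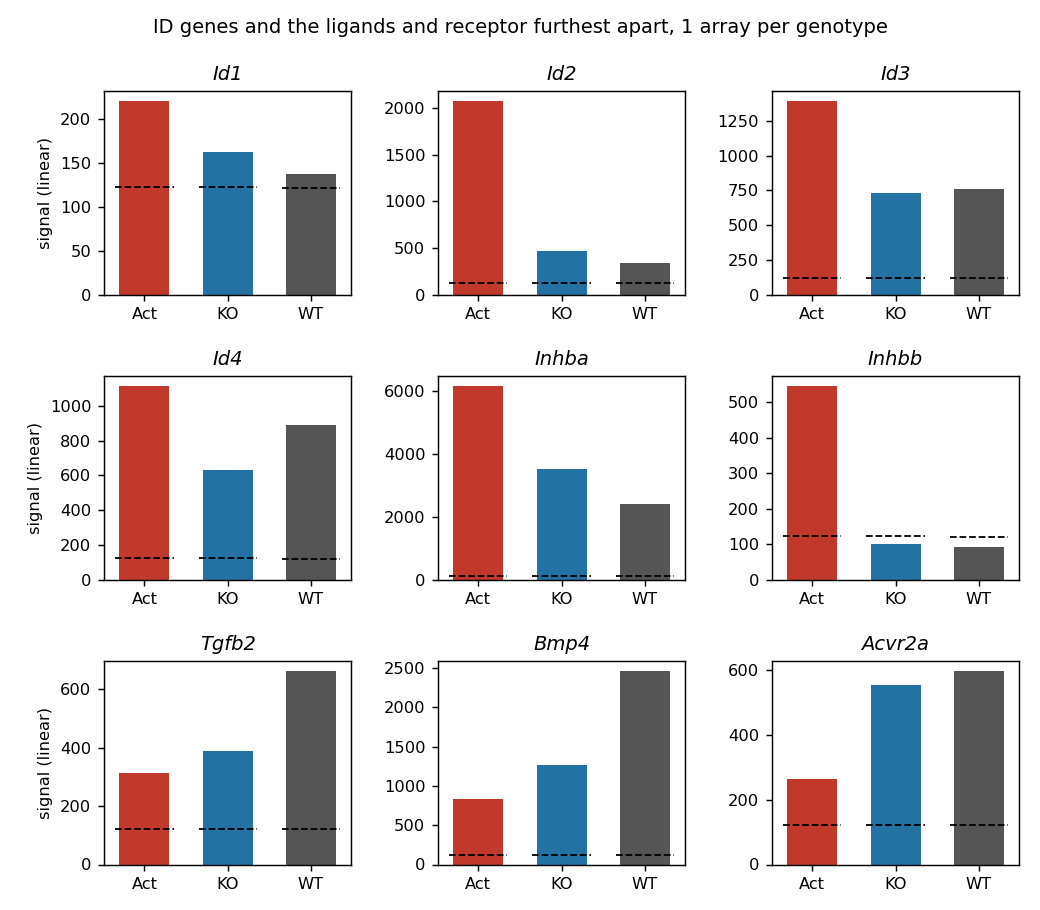
Signal on a linear scale for the 4 ID genes, the activin subunit genes Inhba and Inhbb, the ligands Tgfb2 and Bmp4 and the receptor Acvr2a, with 1 bar per array and the floor as a dashed line. FGFR3Act has the highest bar for each ID gene and both activin subunits and the lowest for Tgfb2, Bmp4 and Acvr2a.

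Latent TGF-beta binding proteins hold TGF-beta in the matrix until it is released. Ltbp1 had 895 on FGFR3Act, 448 on FGFR3KO and 615 on FGFR3WT, highest on the array of the active receptor and lowest on that of its loss. The step between them was 1.998-fold, just outside the threshold, with Acvr2a just inside at 2.10-fold, and the step passed it after quantile normalisation (log2 1.02) and cyclic loess (1.03). Ltbp2 had 969, 1624 and 1692, 1.75-fold lower on FGFR3Act than on FGFR3WT. Ltbp3 had 344, 488 and 360 and was at most 1.42-fold apart. On FGFR3Act against FGFR3WT the Ltbp3 difference changed sign after quantile normalisation (-0.07 to 0.04), so it has no direction.

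Of 9 receptor genes listed, 4 could be compared. Acvr2a, a type II receptor for activins that also serves some BMPs, had 264 on FGFR3Act, 553 on FGFR3KO and 597 on FGFR3WT. It was 2.26-fold lower on FGFR3Act than on FGFR3WT and 2.10-fold lower than on FGFR3KO, while the other arrays differed 1.08-fold. Its second probe set was also lowest on FGFR3Act, with 104 there, below the floor, against 254 and 190. The call against FGFR3WT was lost with the floor at the 60th percentile (log2 -0.83), and that against FGFR3KO there (-0.72) and narrowly after cyclic loess (-0.999). Activin subunit genes and this activin receptor gene thus lay on opposite sides on FGFR3Act.

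The other receptors moved less. Bmpr1a, a type I receptor of BMPs, had 223, 373.5 and 303 on FGFR3Act, FGFR3KO and FGFR3WT and was 1.68-fold lower on FGFR3Act than on FGFR3KO. Bmpr2, the type II partner for BMPs, had 139, 134 and 135, just above the floor and level over the arrays. Eng, which encodes the co-receptor endoglin, had 3958, 3381 and 4221 and was at most 1.25-fold apart. The median of the 4 receptors on FGFR3Act against FGFR3WT was -0.27 in log2.

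The SMAD genes that could be read were close between genotypes. Smad1, the BMP-regulated transducer, had 2175, 1826 and 1620 on FGFR3Act, FGFR3KO and FGFR3WT, and its second probe set had the same order, with 861 on FGFR3KO and 823 on FGFR3WT. Smad2, its TGF-beta and activin counterpart, had 1054, 1263 and 1312, the opposite order. Smad4, the partner shared by both branches, had 1612, 2359 and 1705, with FGFR3KO 1.38-fold above FGFR3WT. The widest step of the 3 was the 1.46-fold of Smad4 between FGFR3Act and FGFR3KO.

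Inhibitors of the pathway were not 2-fold apart in any pair. Smad7, an inhibitory SMAD induced by both branches, had 606 on FGFR3Act, 357 on FGFR3KO and 339 on FGFR3WT, 1.79-fold higher on FGFR3Act than on FGFR3WT. Smad6, the inhibitory SMAD that acts mainly on BMP signals, had 862, 956 and 760. Fst, encoding the activin-binding protein follistatin, was higher on both mutants, with 985 and 1051 against 608, 1.62-fold and 1.73-fold. Ski, a repressor that binds SMADs, was lower on FGFR3Act alone, with 1964 against 3284 on FGFR3KO and 3335 on FGFR3WT, 1.70-fold below wild type. Tgif1, another SMAD corepressor, had 1379, 1109 and 1039. Fstl1, a secreted follistatin-like glycoprotein, had 3737, 3148 and 3979. Over the 6 inhibitors compared, the median log2 difference on FGFR3Act against FGFR3WT was 0.30, with 4 above 0 and 2 below. Of all 5244 genes compared in that pair, 2321 were above 0 and 2923 below.

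The ID genes were the role that lay to a single side. All 4 had their highest signal on FGFR3Act. Id2 had 2077 on FGFR3Act, 470 on FGFR3KO and 335 on FGFR3WT, which is 6.19-fold above FGFR3WT and 4.42-fold above FGFR3KO. Id3 had 1396, 731 and 761 and was 1.83-fold higher than FGFR3WT, the member just outside the 2-fold threshold, with Tgfb2 just inside at 2.13-fold. Id1 was dim, with 221, 163 and 137, and 1.61-fold higher. Id4 had 1117, 632 and 893, 1.25-fold higher than FGFR3WT and 1.77-fold higher than FGFR3KO. The median of the 4 was 0.78 against FGFR3WT and 0.88 against FGFR3KO in log2. Their differences were above 0 in both of these pairs, also under quantile normalisation, cyclic loess and median centring. Of all genes compared, 2321 of 5244 were above 0 against FGFR3WT and 2477 of 5297 against FGFR3KO. On FGFR3KO against FGFR3WT the same 4 genes split 2 and 2, with a median of 0.10, and Id3 (log2 -0.06) took the other sign after quantile normalisation and cyclic loess. The macrophage and leukocyte markers were high on the same array, with a median log2 difference of 3.58 from FGFR3WT over 15 markers, and their part in the ID and activin subunit signals was not tested. Id2 was thus far ahead of its family, and whether any motif in the promoter windows above goes with signal was not tested.

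The 4 other target genes in the member list, all of the TGF-beta branch, were not 2-fold apart in any pair. Tgfbi, a secreted matrix protein induced by TGF-beta, had 344 on FGFR3Act, 424 on FGFR3KO and 518 on FGFR3WT, with FGFR3Act the lowest (log2 -0.59 against FGFR3WT). Tsc22d1, a leucine zipper gene first found as TGF-beta induced, had 1601, 1255 and 1120. The repressor Snai1 had 327, 300.1 and 372, and its relative Snai2, which fibroblasts express strongly, had 2312, 1594 and 2199. The largest step among these 4 genes was that of Tgfbi.

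**Figure D3:**
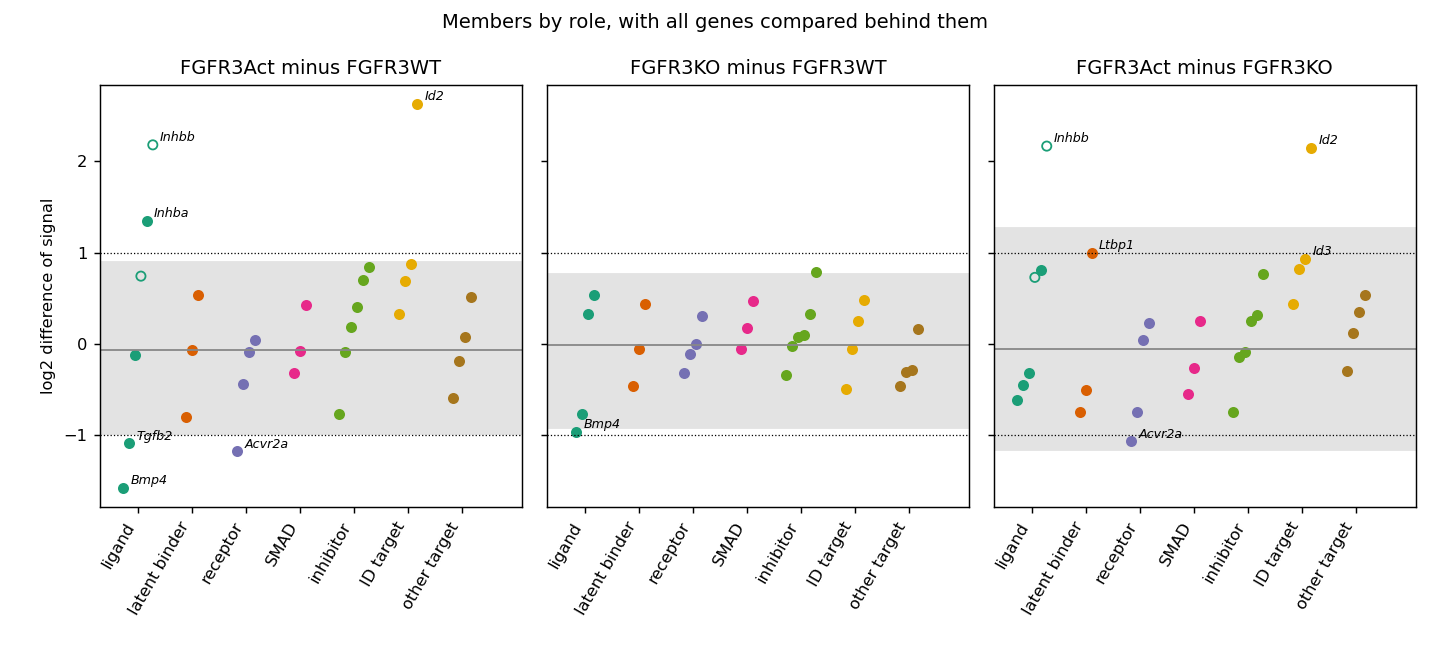
Log2 difference of each member by role in the 3 pairs of arrays; open circles are bounds against the floor, dotted lines mark 2-fold and names mark differences of about that size. The grey band runs from the 5th to the 95th percentile of all genes compared (-0.99 to 0.90, -0.92 to 0.77 and -1.17 to 1.27), and on FGFR3Act minus FGFR3WT Id2, Inhba and Inhbb lie above it and Bmp4, Acvr2a and Tgfb2 below it.

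The TGF-beta and activin arm was then set against the BMP arm. On FGFR3Act against FGFR3WT the 15 compared members of the TGF-beta and activin arm had a median log2 difference of -0.07. Of these, 7 were above 0 and 8 below. The 10 of the BMP arm had a median of 0.37, with 8 above and 2 below. Of all 5244 genes compared in this pair, 2321 were above 0 and 2923 below. Inhbb in the first arm and Bmp6 in the second are bounds, compared only because they passed the floor on FGFR3Act. The difference between the medians of the arms was -0.44. Without the ID genes the BMP median was 0.11 and the difference -0.18. Against FGFR3KO the medians were -0.09 and 0.35, a difference of -0.44, which became -0.04 without the ID genes. The gap between the arms on FGFR3Act thus shrank once the 4 ID genes were left out. Of the 2 BMP ligand genes compared with FGFR3WT, Bmp4 was lower and Bmp6 higher. On FGFR3KO against FGFR3WT the medians were -0.04 over 14 members and 0.17 over 9, a difference of -0.21 that turned to 0.09 with the floor at the 20th percentile.

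Within the BMP arm the steps did not share a direction from ligand to target on FGFR3Act. Bmp4 was 2.98-fold lower than on FGFR3WT by its brighter probe set (log2 -0.81 by the other), and Bmp6 was at least 1.67-fold higher. Bmpr1a was 1.36-fold lower, Bmpr2 was level and Smad1 was 1.34-fold higher. Id2 was 6.19-fold higher, and Id1, Id3 and Id4 were 1.61-fold, 1.83-fold and 1.25-fold higher. Within the activin branch, Inhba was 2.55-fold higher, Acvr2a 2.26-fold lower, Smad2 1.25-fold lower and the antagonist gene Fst 1.62-fold higher. The array measures transcripts, and the phosphorylation of SMADs was not measured.

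FGFR3KO had fewer 2-fold differences from wild type than FGFR3Act over all genes (1.93% higher and 3.61% lower, against 4.14% and 4.79%), and so it did for these members. The members furthest from FGFR3WT there were Bmp4 (1.95-fold lower, just outside the threshold), Fst (1.73-fold higher) and Tgfb2 (1.70-fold lower). Because both mutants are set against the same FGFR3WT array, a low or high reading on that array enters both differences. With the floor at the 20th percentile 1 member, Tgfbr3 (log2 1.08), was at least 2-fold higher and 1, Bmp6 (-1.82), at least 2-fold lower on FGFR3KO.

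Further genes of the pathway, outside the list of members, were taken from a list of 61, of which 36 were represented and 20 were above the floor on at least 1 array. Gdf10, a BMP-related ligand, had 427 on FGFR3Act, 709 on FGFR3KO and 1695 on FGFR3WT, 3.97-fold and 2.39-fold lower than wild type. Its order over the arrays was that of Bmp4. Bmp1, which despite its name is a procollagen proteinase and not a BMP ligand, had 380, 1703 and 1207, 3.18-fold lower on FGFR3Act than on FGFR3WT and 4.48-fold lower than on FGFR3KO. Grem1, a secreted BMP antagonist, had 332 on FGFR3Act, 28.6 on FGFR3KO (below the floor) and 147 on FGFR3WT, 2.25-fold higher than FGFR3WT and at least 2.72-fold higher than FGFR3KO. Twsg1, a modulator of BMP binding, had 1080, 489 and 924, with FGFR3Act 2.21-fold above FGFR3KO. In all, 1 of 19 was at least 2-fold higher and 2 lower on FGFR3Act against FGFR3WT, 0 of 20 and 1 on FGFR3KO against FGFR3WT, and 2 of 20 and 1 on FGFR3Act against FGFR3KO. The shares over all genes were 4.14% and 4.79%, 1.93% and 3.61%, and 8.33% and 7.49%, so these counts of 0 to 2 genes do not set the list apart.

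Of 24 TGF-beta target genes in a second list, 16 could be compared, and 0 were 2-fold apart in either direction on FGFR3Act against FGFR3WT, with a median of 0.21. On FGFR3KO against FGFR3WT 0 were higher and 2 lower to that extent. These were the matricellular gene Ccn2 (3083 against 8061, 2.62-fold) and the transcriptional cofactor gene Cited2 (973 against 1962, 2.02-fold). Most of the list lay on the other side, with 12 above 0, 4 below, a median of 0.23 and a highest log2 difference of 0.86. Over all 5184 genes, 2516 were above 0 and 2668 below. Ccn2 and Cited2 had 11101 and 2771 on FGFR3Act, 3.60-fold and 2.85-fold above FGFR3KO. Col3a1, which encodes a fibrillar collagen, was 2.42-fold lower on FGFR3Act than on FGFR3KO. In that pair 2 of 16 were at least 2-fold higher and 1 lower, against 8.33% and 7.49% of all genes. Over all genes, 4.14% were at least 2-fold higher and 4.79% lower on FGFR3Act against FGFR3WT, and 1.93% and 3.61% on FGFR3KO against FGFR3WT. These counts of 0 to 2 genes do not set the list apart. The cell cycle inhibitor Cdkn1a was level, with 7034, 7088 and 7113.

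Of 17 BMP target genes outside the ID family, 7 could be compared with FGFR3WT on FGFR3Act. Gata2, a zinc finger factor, had 379, 213 and 188 on FGFR3Act, FGFR3KO and FGFR3WT, a 2.02-fold step between the first and last. It was the 1 gene of the list at least 2-fold higher, 0 were lower, and the median was 0.19. With 4.14% of all genes that much higher, 1 of 7 is too few to set the list apart, and among the ID genes likewise only Id2 passed 2-fold.

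**Figure D4:**
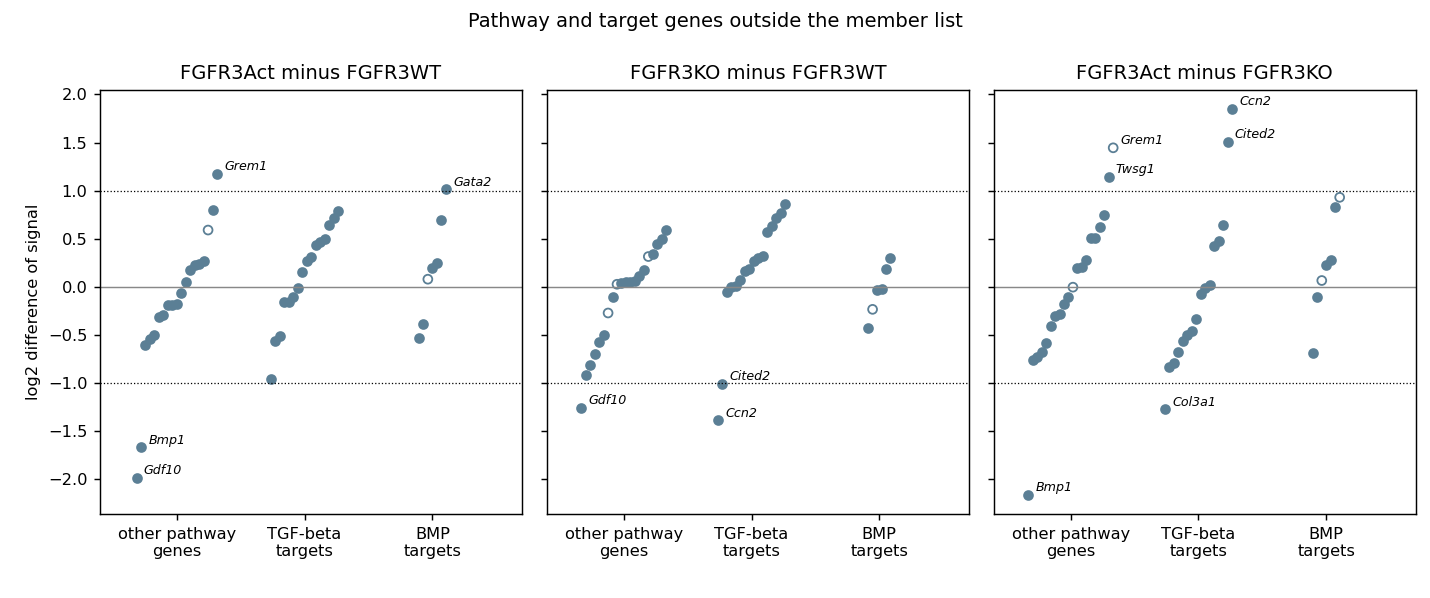
Log2 difference of the genes outside the member list, by list and pair of arrays; filled circles are measured differences, open circles bounds against the floor, and dotted lines mark 2-fold. Named genes are at least 2-fold apart, among them Gdf10 and Bmp1 on the lower side of FGFR3Act minus FGFR3WT and Ccn2 and Cited2 on the lower side of FGFR3KO minus FGFR3WT.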

How the data were processed

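RNA of 3 mouse dermal fibroblast samples, 1 per genotype, was measured on Affymetrix arrays from 15 μg of total RNA. The deposited values are linear signal intensities per probe set made by the authors with MAS5, per the submitters' processing notes; the sources used here give neither its version nor its scaling target. The table holds 9889 probe sets, 18 of them controls. Platform annotation gave 9053 probe sets 1 gene symbol and 323 several; symbols were updated through RefSeq gene identifiers (GRCm38.p6, 9041 matched). Signals were floored at the 40th percentile of each array and compared as log2 differences with Python 3.11.15 and pandas 2.3.3. The comparison was also run on simulated arrays without noise, which checks its arithmetic and not its precision. With 1 column per genotype no test was possible, and the number of arrays limits the precision. Quantile normalisation and cyclic loess used limma 3.58.1. The members, their roles and arms, the other lists and the alternatives were chosen with earlier results of these data known. Every member is accounted for; other pathway and target genes were named where at least 2-fold apart in any pair, and Cdkn1a was named after its values were seen. Promoter sequences are from RefSeq.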

Additional observations from a re-analysis of the deposited data

How the results depend on the processing

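With 1 column per genotype, stability can be judged only against processing choices. Of 692 recomputed log2 differences of single members, 679 kept their side of the 2-fold threshold, 9 of those at least 2-fold apart came below it and 4 passed it. Most of the 692 were of differences below 2-fold as reported, so the 679 say little about the members past it. The 9 were those of Tgfb2 and Bmp4 on FGFR3Act against FGFR3WT, and of Inhbb and Acvr2a on FGFR3Act against both other arrays. Id2 and Inhba stayed past 2-fold wherever they were so as reported. In 13 of the 692 the sign changed, for 8 members and pairs with a difference of at most 0.11 as reported, and 0 of these were 2-fold apart. With the floor at the 60th percentile, 1 member was at least 2-fold lower on FGFR3Act against FGFR3WT, and 1 was higher and 0 lower against FGFR3KO, with a member median of 0.067; fewer genes are then off the floor. With it at the 20th percentile, 1 member was higher and 1 lower on FGFR3KO against FGFR3WT, and 2 were lower on FGFR3Act against FGFR3KO. Cyclic loess left 0 lower in that last pair, and requiring both arrays above the floor left 1 higher, as Inhbb drops out. The TGF-beta and activin median minus the BMP median on FGFR3KO against FGFR3WT was 0.094 with the floor at the 20th percentile and -0.088 at the 60th. On FGFR3Act against FGFR3KO it was -0.62 with the floor at the 20th percentile and -0.33 with the mean over probe sets. Without a filter, members below the floor enter at a difference of 0, which by construction moved this difference of medians to -0.023 on FGFR3Act against FGFR3WT and 0.0 in the other pairs, and the median of the members on FGFR3Act against FGFR3KO to 0.0. The count of members at least 2-fold higher on FGFR3Act against FGFR3KO was 3 in each of 4 settings (quantile normalisation, cyclic loess, an offset of 16 in place of the floor, and the floor at the 20th percentile). No paired analysis was possible because each genotype has 1 column. Dim probe sets limit what can be said of the 12 members below the floor.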
